A study of Mus musculus with 28 samples.

Results

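The comparison described here set CD4+ T cells of Sle1b.BACSlamf6-H1 mice against those of B6.Sle1b mice after 4 h on antibody to CD3, with 3 arrays in each group, so that it rests on 6 of the 28 samples of the study. The arrays were chosen by the strain and the time in their labels. B6.Sle1b mice carry the Sle1b lupus susceptibility interval of chromosome 1 on the C57BL/6 background. Sle1b.BACSlamf6-H1 mice, written Sle1b.BAC below, carry that interval too, and were also given a bacterial artificial chromosome (BAC) that is named after Slamf6-H1. The labels do not give the cell types in which the added chromosome is active or the number of founder lines. All mice were 12-week-old females, and the cells were total splenic CD4+ T cells on plate-bound antibody at 0.1 µg/ml. Unstimulated cells and cells after 24 h of both strains (3 arrays each), and C57BL/6 cells after 4 h (3 arrays), served for comparison. Of the 28 arrays, 26 labelled biological entered the model. The comparison asks what the added Slamf6-H1 chromosome changes in the early response of Sle1b T cells to the T cell receptor.

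Slamf6, also called Ly108, belongs to the SLAM receptors, which sit on lymphocytes, mostly bind their own kind on the neighbouring cell and signal through the small adaptor SAP, the product of Sh2d1a, and the kinase Fyn. In mice they shape cytokine production, T follicular helper cells and germinal centres. The Sle1b interval differs from C57BL/6 in the SLAM genes, among them in which splice forms of Ly108 are made, and H1 is one of these forms. Antibody to CD3 stands in for antigen: within hours it induces early transcription factors, cytokines and activation receptors in T cells.

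The arrays were of broadly similar quality but differed in brightness. The 75th percentile of intensity was 47.3, 45.5 and 39.2 on the B6.Sle1b arrays 1 to 3 and 49.7, 34.2 and 43.9 on the Sle1b.BAC arrays 1 to 3, so that Sle1b.BAC array 2 was the dimmest of the 6. B6.Sle1b array 3 was the next dimmest. The log2 signal of the hybridization spike controls was highest on these arrays, at 10.54 and 10.34. Correlations between the 6 arrays over all probe sets lay between 0.971 and 0.995. The labelled cell type was borne out by its markers: all 8 CD4 T cell genes measured, among them Cd3e, Cd4 and Cd2, were above background on all 6 arrays, the background being the 95th percentile of the non-specific control probe sets of an array. Markers of other cells were present as well. Of 15 B cell genes 11 were above background on all 6 arrays, as were 9 of 13 neutrophil genes, 7 of 11 NK cell genes and 8 of 13 monocyte and macrophage genes, whereas Cr2, C1qa, C1qb, Vcam1, Xcr1, Klra1 and Klra8 were at background on all 6. The summed linear intensity of the neutrophil genes ranged from 178 to 670 in B6.Sle1b and from 174 to 994 in Sle1b.BAC, and that of the B cell genes from 1023 to 1388 and from 1213 to 1662.

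Slamf6 itself came first, and its signal depended on the probe set. Its probe sets told C57BL/6 apart from the strains with the interval, but none was called between Sle1b.BAC and B6.Sle1b. On probe set 1420659_PM_at the log2 intensity at 4 h was 8.65, 8.20 and 8.62 in B6.Sle1b and 8.60, 8.06 and 8.69 in Sle1b.BAC, against 7.13, 7.04 and 7.14 in C57BL/6. Both strains with the interval thus lay above C57BL/6 and overlapped each other, with a difference of -0.04 ± 0.17 (log2, Sle1b.BAC minus B6.Sle1b, SE, n = 3 against 3; 95% interval -0.39 to 0.31). Here and below, SE is the standard error that limma's fit gives to a difference.

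Probe set 1425086_PM_a_at had the opposite order among the strains. Its log2 intensity was 6.90, 6.52 and 6.99 in B6.Sle1b, 7.45, 6.85 and 7.49 in Sle1b.BAC and 8.46, 8.39 and 8.97 in C57BL/6. Sle1b.BAC lay between the other strains, and its lowest array fell within the range of B6.Sle1b. The difference of 0.46 ± 0.21 had an unadjusted p of 0.0371 and an adjusted p of 1.0 over all probe sets (limma, n = 3 against 3). On the same probe set the difference was 0.25 ± 0.21 in unstimulated cells and 0.30 ± 0.21 at 24 h. The third probe set, 1457773_PM_at, was at background in both strains with the interval and at 5.25, 5.09 and 5.26 in C57BL/6. Against C57BL/6 at 4 h, 1425086_PM_a_at was lower in B6.Sle1b by a log2 difference of -1.80 (adjusted p = 0.000432 in limma) and in Sle1b.BAC by -1.35 (adjusted p = 0.0104). These comparisons share the C57BL/6 arrays. Which splice forms each probe set measures, and whether the interval's sequence differs under its probes, was not analysed here.

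**Figure D1:**
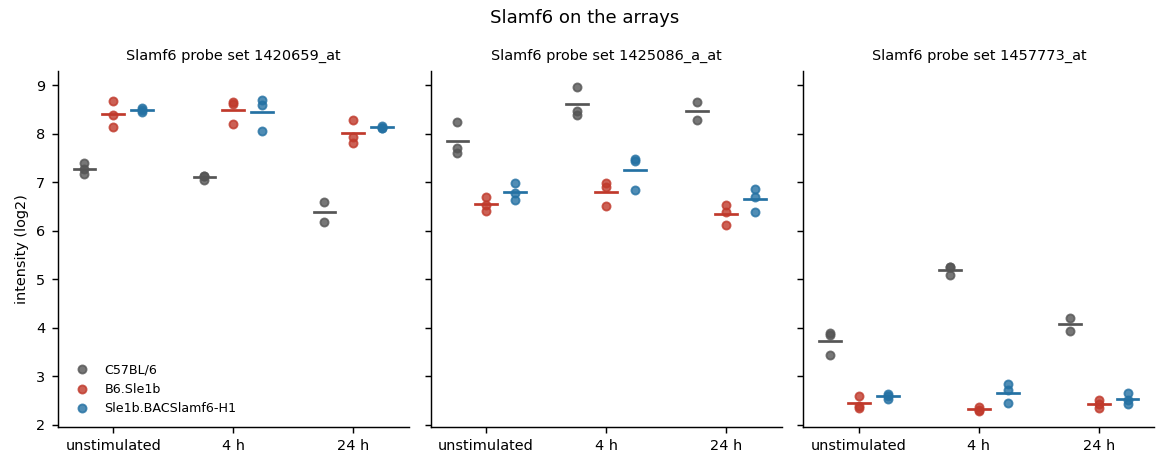
Log2 intensity of the 3 Slamf6 probe sets (y axis) in unstimulated cells and after 4 h and 24 h of anti-CD3 (x axis), 1 point per array and a bar at the group mean, coloured by strain. On the middle panel, probe set 1425086, Sle1b.BAC at 4 h lies between B6.Sle1b and C57BL/6; on the left panel it overlaps B6.Sle1b.

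None of the other SLAM genes passed the test. In all, 10 members of the list of receptors and adaptors were measured (6 with a higher and 4 with a lower point estimate in Sle1b.BAC, median 0.04), whereas Cd48 and Slamf7 were not analysed here. Cd84, a self-binding SLAM receptor, was at 8.32, 8.52 and 8.50 in B6.Sle1b and at 8.53, 8.65 and 8.64 in Sle1b.BAC. Its arrays did not overlap, but by a margin that left a difference of 0.16 ± 0.19. Values here are of a gene's probe set with the highest mean unless another is named. On a dimmer Cd84 probe set, 1446505_PM_at, the difference was 0.32 ± 0.19 with overlapping arrays. In unstimulated cells it was 0.55 ± 0.19 there, against -0.28 on the brighter one. Slamf1, a receptor that costimulates T cells, differed by -0.02 ± 0.19 (-0.09 and 0.08 on its other probe sets), and Ly9 by 0.03 ± 0.23. Sh2d1a, the adaptor SAP, was at 8.75, 8.67 and 8.92 against 8.75, 8.97 and 8.73, a difference of 0.04 ± 0.16 with a 95% interval from -0.29 to 0.37. The kinase Fyn differed by -0.23 ± 0.24. Slamf9, Cd244a and Sh2d1b1, close to background here, differed by 0.10 ± 0.24, -0.06 ± 0.16 and 0.12 ± 0.16, and Slamf8 was at background in both strains. Another Cd244a probe set, 1449991_PM_at, was at background in both strains, with a difference of 0.19 ± 0.20.

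Across all 17097 genes, no gene was called between Sle1b.BAC and B6.Sle1b at 4 h, where called means an adjusted p under 0.05 in limma (0% of genes; smallest adjusted p = 0.969). An unadjusted p under 0.05 was reached by 613 genes, 230 higher and 383 lower in Sle1b.BAC, which is 3.59% of genes and fewer than the 855 that correspond to 5% of 17097. This order depended on the setting: the count was 973 with quantile normalization repeated and 1584 with brightness as a covariate. The arrays of the strains did not overlap for 510 genes that were higher in Sle1b.BAC (2.98%) and for 666 that were lower (3.9%). The point estimate was below 0 for 9440 of the 17097 genes, and the median difference over all genes was -0.02. Among the 11868 genes above background in either group, 7126 were below 0 (median -0.05). Of these 11868 genes, 348 had an unadjusted p under 0.05 downwards (limma), and for 538 the arrays did not overlap downwards. Most members of the lists below were above background, so these 11868 genes are the closer comparison for their counts. In an alternative chosen after seeing the data, without the 3 dimmest arrays outside the 24 h groups, 1 of them Sle1b.BAC array 2 at 4 h, 2 genes were called (limma). These were Padi4, at -0.86 (adjusted p = 0.0149), and the noncoding RNA Kcnq1ot1, at 1.31 (adjusted p = 0.0305). Without Sle1b.BAC array 2 alone, no gene was called (limma, smallest adjusted p = 0.299). The count of 0 does not show that the strains were alike. The 95% interval of the difference lay within 1 log2 unit, a 2-fold change, for 16262 genes (95.1%), and for 11037 (93.0%) of the 11868 genes above background in either group. The point estimate was beyond 1 log2 unit for 6 genes upwards and 9 downwards. In unstimulated cells the same strains differed in 14 called genes (0.0819%), all lower in Sle1b.BAC, with 1390 genes under an unadjusted p of 0.05 (8.13%). At 24 h no gene was called (0%; limma), with 908 under an unadjusted p of 0.05 (5.31%).

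**Figure D2:**
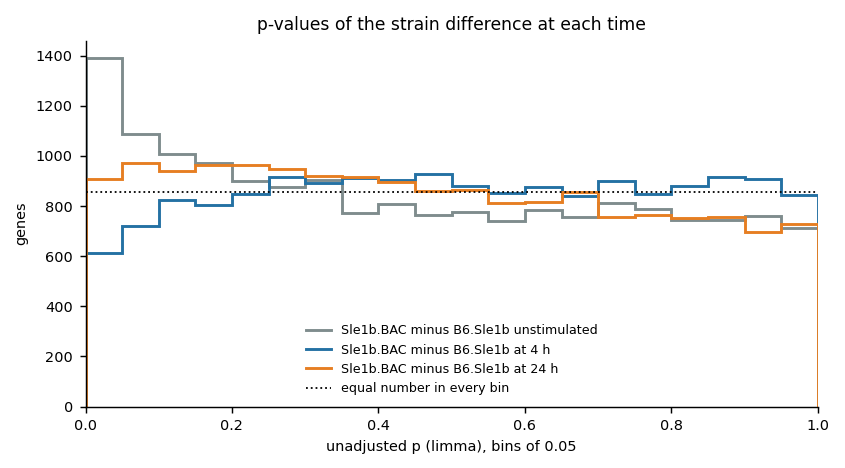
Number of genes (y axis) in each bin of the unadjusted limma p (x axis, bins of 0.05) for Sle1b.BAC against B6.Sle1b in unstimulated cells, at 4 h and at 24 h, with a dotted line at an equal number in every bin. The first bin holds 613 genes at 4 h, 1390 in unstimulated cells and 908 at 24 h.

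With no called gene to describe, the 12 genes of smallest p upwards and the 12 downwards are given as measured values. All 24 have arrays that do not overlap by the rule that chose them, and an adjusted p of 0.969 or above (limma). Among the higher genes, Thoc2, a subunit of the THO complex for RNA export, was at 8.83, 8.82 and 9.21 in B6.Sle1b and at 9.70, 9.48 and 9.62 in Sle1b.BAC, a difference of 0.65 ± 0.15 (1.56-fold). Rc3h2, which encodes Roquin-2, an RNA-binding protein that represses costimulatory transcripts in mice, was at 5.64, 5.40 and 5.49 against 6.29, 5.99 and 6.59, a difference of 0.78 ± 0.20 (1.72-fold). All 3 C57BL/6 arrays lay below every Sle1b.BAC array for both genes, at 8.66, 8.71 and 8.83 for Thoc2 and at 5.06, 4.90 and 5.43 for Rc3h2.

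Cdk5rap1, an enzyme that modifies mitochondrial transfer RNA, was at 7.40, 6.56 and 6.88 against 7.56, 8.18 and 7.78. Its difference of 0.90 ± 0.26 at 4 h stood beside 0.74 in unstimulated cells and 0.85 at 24 h, so the point estimate was of similar size at all 3 times. Gpr34, a receptor for lysophosphatidylserine, was at 3.56, 3.23 and 3.49 against 4.71, 4.09 and 4.60, a difference of 1.04 ± 0.29 (2.06-fold). The C57BL/6 arrays, at 4.28, 5.07 and 5.51, overlapped Sle1b.BAC and lay above B6.Sle1b. Arhgap5 differed by 0.56 ± 0.15, the noncoding RNA Kantr by 0.55 ± 0.12, Nbeal1 by 0.62 ± 0.16, Pcmtd1 by 0.57 ± 0.15 and the small GTPase gene Rab25 by 0.62 ± 0.16. Hfe, a regulator of iron uptake, G0s2, an inhibitor of triglyceride lipolysis, and Fam78b were at background in B6.Sle1b. Measured against that background they were at least 1.45-fold, 1.32-fold and 1.02-fold higher in Sle1b.BAC.

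Of the 12 lower genes, Tg, which encodes thyroglobulin, had the smallest p of all genes (0.000116, unadjusted). It was at 6.09, 5.81 and 5.78 in B6.Sle1b and at 5.0, 4.46 and 4.73 in Sle1b.BAC, a difference of -1.16 ± 0.25. The C57BL/6 arrays, at 5.45, 4.55 and 4.01, covered the range of Sle1b.BAC and ended below B6.Sle1b. Gpm6b, a membrane protein of the proteolipid family, was at 6.46, 5.78 and 5.68 against 4.59, 4.25 and 4.90, a difference of -1.39 ± 0.34 that was -1.58 in unstimulated cells and -0.12 at 24 h. Sdcbp2, which encodes the scaffold protein syntenin-2, was at 6.55, 6.69 and 6.87 against 6.27, 5.99 and 6.05, with C57BL/6 at 6.21, 5.83 and 6.12. For these 3 genes Sle1b.BAC thus lay nearer to C57BL/6 than B6.Sle1b did. The comparisons with C57BL/6 share their arrays with the one between the strains, so this order is a description only.

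Padi4, which encodes a peptidylarginine deiminase best known from neutrophils, was at 3.37, 3.34 and 3.29 in B6.Sle1b and at 2.49, 2.97 and 2.46 in Sle1b.BAC. The latter group was at background, which makes Padi4 at least 1.36-fold lower (log2 difference -0.70 ± 0.17). In bulk RNA a smaller share of a cell type and less RNA per cell cannot be told apart. The neutrophil genes S100a8 and S100a9 had point estimates above 0, with values of 6.55, 7.81 and 4.79 for S100a8 in B6.Sle1b against 5.23, 8.52 and 8.61 in Sle1b.BAC, and with wide spread within both groups. Of the 13 neutrophil genes measured, 8 had point estimates above 0 and 5 below, with a median of 0.08. Their part in the Padi4 value was not tested. The GTPase activator gene Tbc1d22a differed by -0.57 ± 0.13, Tubd1, a tubulin gene, by -0.58 ± 0.14, Ankrd37 by -0.53 ± 0.14, D130037M23Rik by -0.64 ± 0.17, Fam110c by -0.45 ± 0.12 and Dcun1d4, which takes part in cullin neddylation, by -0.70 ± 0.19. For Tbc1d22a and D130037M23Rik the C57BL/6 arrays overlapped those of B6.Sle1b and lay above those of Sle1b.BAC. The remaining members of the group of 12, Mx1 and Oas1g, are antiviral genes that interferon induces.

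**Figure D3:**
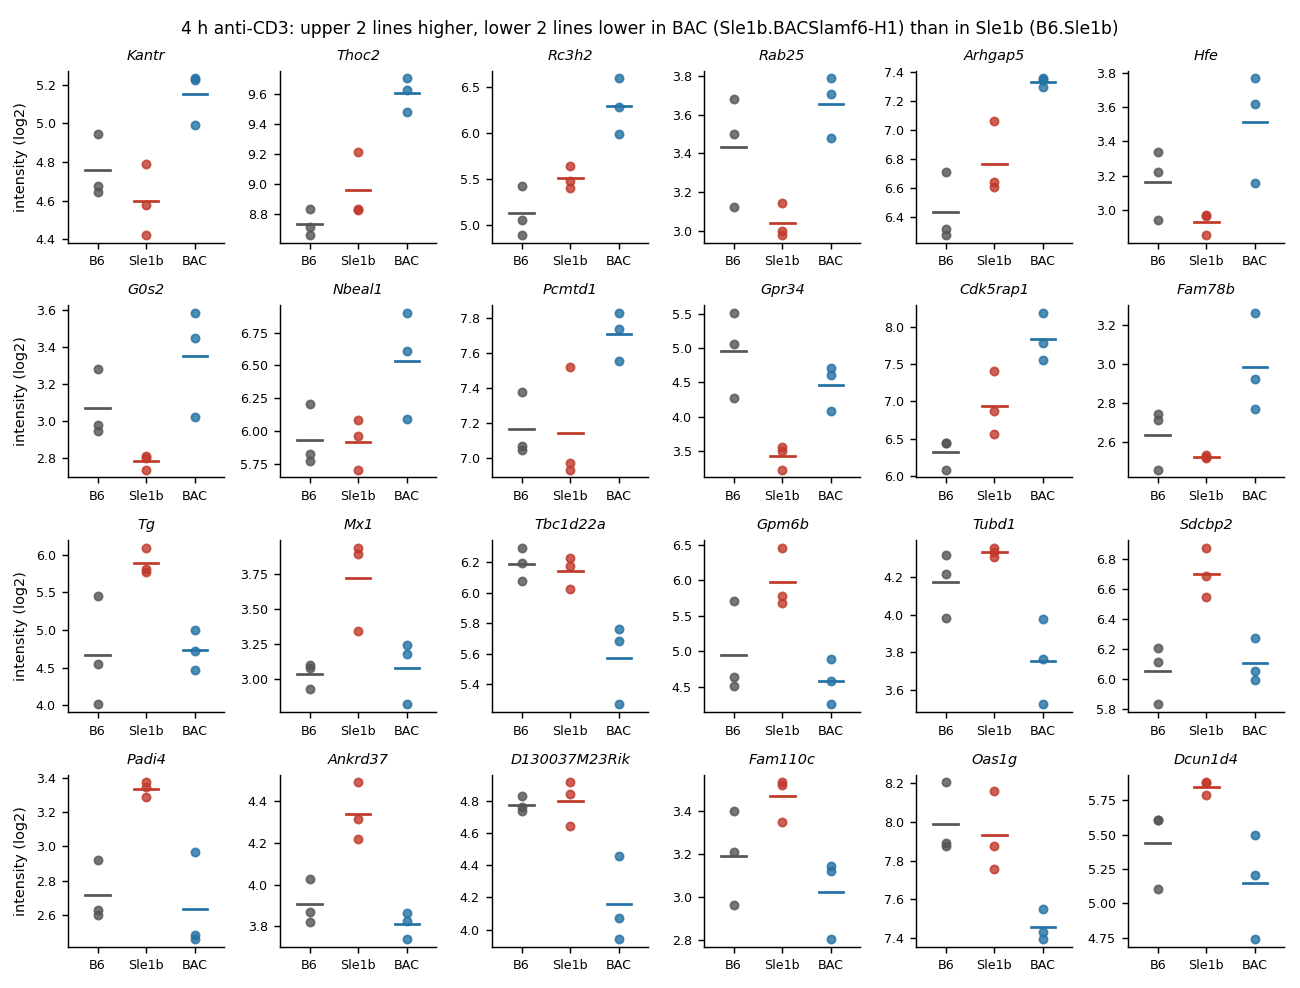
Log2 intensity (y axes, each panel with its own range) at 4 h in C57BL/6 (B6), B6.Sle1b (Sle1b) and Sle1b.BAC (BAC) for the 12 genes higher and the 12 lower in Sle1b.BAC with the smallest p, 1 point per array and a bar at the group mean. Arrays of the latter 2 strains do not overlap in any panel, by the rule that chose the genes; for Tg, Mx1, Gpm6b, Sdcbp2 and Padi4 the C57BL/6 mean lies close to that of Sle1b.BAC.

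Genes that type I interferon induces had point estimates below 0 in all 17 members measured (median -0.42, against -0.02 over all genes). None was called, 5 of the 17 had an unadjusted p under 0.05 downwards, against 2.24% of all genes, and for 4 the arrays did not overlap downwards, against 3.9%. Type I interferons act on most cells and induce antiviral effectors. These include Mx1, Oas3, a sensor enzyme for double-stranded RNA, Rsad2, which encodes viperin, and Irf7, a transcription factor that amplifies interferon production.

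The interferon-stimulated response element, to which interferon regulatory factors bind, has a core that can be spelled as GAAA, any 2 bases and GAAA again. To show what the promoters of these leading members hold, the 250 bases before the gene's start are given for Oas3, Rsad2 and Irf7 from RefSeq (build GRCm38.p6), with matches to that core on either strand in capitals. No promoter entry was found for Mx1.
Oas3 chr5:120777660-120777909, minus strand: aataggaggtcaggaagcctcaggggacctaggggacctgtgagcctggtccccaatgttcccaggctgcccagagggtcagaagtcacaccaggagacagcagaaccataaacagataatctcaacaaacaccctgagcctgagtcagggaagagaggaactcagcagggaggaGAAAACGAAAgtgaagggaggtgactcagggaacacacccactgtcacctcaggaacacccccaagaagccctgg
Rsad2 chr12:26456453-26456702, minus strand: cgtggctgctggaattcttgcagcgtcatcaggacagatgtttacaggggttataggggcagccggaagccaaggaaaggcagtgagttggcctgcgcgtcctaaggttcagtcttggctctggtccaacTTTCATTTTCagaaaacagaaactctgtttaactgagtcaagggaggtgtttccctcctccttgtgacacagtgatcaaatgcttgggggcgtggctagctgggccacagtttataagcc
Irf7 chr7:141266425-141266674, minus strand: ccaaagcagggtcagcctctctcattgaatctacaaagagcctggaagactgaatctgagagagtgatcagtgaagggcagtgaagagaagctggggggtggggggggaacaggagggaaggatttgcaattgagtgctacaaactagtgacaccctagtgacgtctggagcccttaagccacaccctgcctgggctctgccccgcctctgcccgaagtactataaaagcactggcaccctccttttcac
Oas3 holds 1 match on the gene's own strand, 75 bases before the start, and Rsad2 holds 1 on the other strand, 120 bases before it. In Irf7 these letters do not occur in this window. Of 12 promoters found for 11 of the 17 list members, 5 hold a match (41.7%), against 978 of all 32851 promoters in the table (2.98%) and 9 of 17 promoters (52.9%) of the interferon gamma list. A match is a description of the sequence and no measurement of binding.

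Rsad2, with a match in its promoter above, was at 8.07, 8.38 and 9.16 in B6.Sle1b and at 7.33, 7.14 and 7.35 in Sle1b.BAC, a difference of -1.26 ± 0.42 (2.40-fold lower, unadjusted p = 0.00654 in limma). Mx1 was at 3.89, 3.34 and 3.94 against 3.18, 2.82 and 3.25, a difference of -0.64 ± 0.15 (1.56-fold lower). The groups did not overlap for either gene, and B6.Sle1b array 3 was the highest of the 6 for both. Oas3 was at 4.86, 4.76 and 5.11 against 4.60, 4.12 and 4.30, a difference of -0.57 ± 0.16, and Irf7 at 8.08, 7.95 and 7.78 against 7.70, 7.0 and 7.33, a difference of -0.59 ± 0.22. Oas1g, which is not on the list, was at 7.88, 7.76 and 8.16 against 7.43, 7.55 and 7.39. Here too the arrays did not overlap, and the difference was -0.47 ± 0.13.

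The interferon values rested in part on B6.Sle1b array 3. The mean log2 intensity over the 17 genes was 7.55, 7.53 and 8.13 on the B6.Sle1b arrays and 7.53, 7.06 and 7.28 on the Sle1b.BAC arrays, with C57BL/6 at 7.18, 7.06 and 7.81. Array 3 stood highest in both B6.Sle1b and C57BL/6, and the lowest B6.Sle1b array met the highest Sle1b.BAC array. Without B6.Sle1b array 3 the median was -0.18, with 14 of 17 below 0, and without Sle1b.BAC array 2 it was -0.28, with 15 of 17 below 0. The list had a median of -0.51 in unstimulated cells (15 of 17 below 0) and of 0.15 at 24 h (3 of 17 below 0). Against C57BL/6 at 4 h, with shared arrays, it was 0.28 for B6.Sle1b and -0.03 for Sle1b.BAC. From unstimulated cells to 4 h, 9 of the 17 genes rose in B6.Sle1b and 10 in Sle1b.BAC (adjusted p under 0.05 in limma; 2.57% and 4.22% of all genes rose), and for none was the difference of the responses called.

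The response to interferon gamma, made by T cells themselves, had no common direction. Of its 17 measured genes 9 had a higher and 8 a lower point estimate in Sle1b.BAC (median 0.02), and none had an unadjusted p under 0.05. Cxcl9 and Cxcl10, chemokines that interferon gamma induces, differed by 0.42 ± 0.41 and -0.40 ± 0.46. Psmb8, a subunit of the immunoproteasome, differed by -0.14 ± 0.10, and Socs1, a feedback inhibitor of cytokine signalling, by -0.41 ± 0.25. In both strains most of the list had responded to anti-CD3: 12 of 17 genes rose in B6.Sle1b and 14 in Sle1b.BAC from unstimulated cells to 4 h (adjusted p under 0.05 in limma), against 2.57% and 4.22% of all genes.

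Among activation receptors 12 of 15 genes, against 9440 of all 17097, had point estimates below 0 in Sle1b.BAC (median -0.23). None was called, and 5 had an unadjusted p under 0.05 downwards (2.24% of all genes). Lag3, which encodes an inhibitory receptor for MHC class II, was at 4.31, 4.61 and 5.29 in B6.Sle1b and at 4.42, 3.39 and 3.52 in Sle1b.BAC, a difference of -0.96 ± 0.26 with overlapping arrays. Pdcd1, which encodes the inhibitory receptor PD-1, was at 7.92, 7.96 and 7.22 against 7.09, 6.73 and 6.75, a difference of -0.85 ± 0.29. Tnfrsf4, which encodes the costimulatory receptor OX40, was at 10.51, 10.33 and 10.30 against 9.55, 10.04 and 9.96, a difference of -0.53 ± 0.16. Pdcd1 and Tnfrsf4 had no overlap between the groups. The costimulatory receptor gene Tnfrsf18 differed by -0.29 ± 0.11. Without Sle1b.BAC array 2, the dimmest, the list's median was -0.09 with 9 of 15 below 0. In unstimulated cells the list had a median of -0.21 (11 of 15 below 0), and at 24 h of 0.02 (6 of 15). From unstimulated cells to 4 h, 3 of the 15 genes rose in B6.Sle1b and 4 in Sle1b.BAC (adjusted p under 0.05 in limma).

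T follicular helper genes, which mark the T cells that help B cells in germinal centres, had point estimates below 0 in 13 of 15 (all genes, 9440 of 17097). Their median was -0.22, with 5 under an unadjusted p of 0.05 downwards (2.24% of all genes) and none called. Sostdc1, a secreted antagonist of BMP and Wnt ligands, was at 4.02, 4.38 and 4.07 against 3.61, 3.58 and 3.23, a difference of -0.69 ± 0.24. Izumo1r, which encodes folate receptor 4, found on regulatory and follicular T cells, was at 7.07, 6.92 and 6.73 against 6.30, 6.42 and 6.59, a difference of -0.47 ± 0.13. The arrays of the strains did not overlap for either gene. Cd200, whose protein restrains myeloid cells, differed by -0.33 ± 0.13. The list had a median of -0.52 in unstimulated cells (13 of 15 below 0) and of 0.02 at 24 h (7 of 15). When each gene was the mean of its probe sets, the median of the list at 4 h was -0.09, and the list is not separate from the others. It shares Pdcd1 and Icos with the activation receptors, Izumo1r with the regulatory T cell genes, Batf with the immediate early genes, Il21 with the cytokines and Il6st with the cytokine receptors. Of the 12 regulatory T cell genes 10 had point estimates below 0 (median -0.20), with Nrp1, a surface receptor of thymus-derived regulatory cells, at -0.70 ± 0.37 and Klrg1, a receptor of differentiated T cells, at 0.54 ± 0.26. The mean log2 intensity of these 12 genes overlapped, at 6.84, 6.60 and 6.47 in B6.Sle1b against 6.51, 6.18 and 6.66 in Sle1b.BAC. Memory and effector genes had 12 of 18 below 0 (median -0.13). Their mean log2 intensity was 7.39, 7.26 and 7.34 in B6.Sle1b against 7.33, 6.88 and 7.46 in Sle1b.BAC, where array 2 was the lowest and array 3 the highest of the 6. Among these 18 genes Cst7, a cysteine protease inhibitor of cytotoxic cells, differed by -0.36 ± 0.15 and Cxcr3, a chemokine receptor of T helper 1 cells, by -0.65 ± 0.32.

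The early transcription factors and other immediate early genes had point estimates below 0 in 22 of 24 (all genes, 9440 of 17097). Their median was -0.22, with none under an unadjusted p of 0.05. Fos, a subunit of AP-1, was at 8.52, 8.74 and 8.39 in B6.Sle1b and at 8.60, 7.77 and 8.03 in Sle1b.BAC, a difference of -0.42 ± 0.27. Junb, its partner in AP-1, differed by -0.38 ± 0.25 and Bhlhe40, a repressor that shapes cytokine production, by -0.47 ± 0.30. Egr3, which restrains T cell activation, was one of the 2 genes above 0, at 4.03, 3.99 and 3.82 against 4.40, 4.34 and 4.04. The median of this list moved with single arrays: it was -0.09 without B6.Sle1b array 2, -0.11 without Sle1b.BAC array 2 and -0.40 without B6.Sle1b array 3. In unstimulated cells the median was -0.16 (17 of 24 below 0), and at 24 h 0.18 (3 of 24). From unstimulated cells to 4 h, 5 of the 24 genes rose and 3 fell in B6.Sle1b (adjusted p under 0.05 in limma). In Sle1b.BAC 5 rose and 4 fell. Among the 6 arrays the mean log2 intensity of the 24 genes was lowest, at 7.84, on the dimmest, Sle1b.BAC array 2. This was not particular to the list. Leaving aside the marker lists and those from earlier results, array 2 was lowest for every list except the SLAM genes. Its mean was 7.13 for glycolysis, 7.06 for type I interferon genes and 8.34 for naive genes. Marker lists went both ways, with array 2 lowest for NK cells (4.79) but not for neutrophils (4.57). The lower list values in Sle1b.BAC therefore share this array and are not separate observations. Why the means were lowest on this array was not tested. With brightness as a covariate in the fit of every gene, no gene was called, and the median was -0.16 for immediate early genes, -0.21 for activation receptors and -0.44 for type I interferon genes.

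Cytokine transcripts showed no common direction: of 18 genes, 10 had higher and 8 lower point estimates in Sle1b.BAC, with a median of 0.01 and none under an unadjusted p of 0.05. Il2, the T cell growth factor, and Ifng, the T helper 1 cytokine, are added here after their values were seen. Il2 was at 6.55, 6.60 and 5.89 in B6.Sle1b and at 6.94, 5.95 and 6.24 in Sle1b.BAC, a difference of 0.03 ± 0.36 (95% interval -0.72 to 0.78). It rose from unstimulated cells to 4 h by 1.84 ± 0.36 in B6.Sle1b (adjusted p = 0.00226 in limma) and by 1.93 ± 0.36 in Sle1b.BAC (adjusted p = 0.00105). Ifng differed by 0.03 ± 0.30 at 4 h. Its response was 1.84 ± 0.30 in Sle1b.BAC (adjusted p = 0.000234) and 0.89 ± 0.30 in B6.Sle1b (adjusted p = 0.103). The difference of these responses was 0.95 ± 0.42, which was not called. Among the cytokines with the smallest p, Il10, an anti-inflammatory cytokine, was at 5.23, 5.15 and 5.24 against 4.97, 4.26 and 4.99 (difference -0.47 ± 0.29). Lif differed by -0.51 ± 0.34 and the type 2 cytokine Il13 by -0.30 ± 0.27. Il3, a growth factor for blood cell precursors, was at 2.44, 2.76 and 2.51 against 2.98, 2.24 and 4.75, so that its value rested on Sle1b.BAC array 3. Naive and quiescence genes had a median of -0.02 (4 of 14 higher), with point estimates between -0.10 and 0.15.

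Of 14 glycolysis genes 13 had point estimates below 0 (all genes, 9440 of 17097), with a median of -0.29. An unadjusted p under 0.05 downwards was reached by 5 (2.24% of all genes), and 6 had arrays that did not overlap downwards (3.9%), while none was called. Pkm, whose enzyme makes pyruvate, was at 8.72, 8.73 and 8.57 in B6.Sle1b and at 8.32, 8.12 and 8.22 in Sle1b.BAC, a difference of -0.45 ± 0.14. Aldoa, an aldolase gene, was at 9.88, 9.77 and 9.68 against 9.46, 9.14 and 9.41, a difference of -0.44 ± 0.15. Tpi1, which encodes triose phosphate isomerase, differed by -0.56 ± 0.21 and Pfkp, a phosphofructokinase gene, by -0.44 ± 0.17. The arrays of the strains did not overlap for any of these 4 genes. The median was -0.20 without Sle1b.BAC array 2 and -0.41 without B6.Sle1b array 3, and in the other comparisons of the same strains it was -0.11 in unstimulated cells and 0.02 at 24 h. From unstimulated cells to 4 h, 1 of the 14 genes rose in B6.Sle1b and 1 fell in Sle1b.BAC (adjusted p under 0.05 in limma). Against C57BL/6 at 4 h, with shared arrays, the list's median was -0.26 for Sle1b.BAC and 0.09 for B6.Sle1b.

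Other growth programmes had smaller medians and no called gene. Cell cycle genes had 26 of 29 below 0 (median -0.21), where all genes had 9440 of 17097. The mean log2 intensity of the cell cycle genes overlapped, at 6.53, 6.11 and 6.12 in B6.Sle1b against 5.99, 5.86 and 6.21 in Sle1b.BAC. Mcm6, a subunit of the replicative helicase, differed by -0.41 ± 0.18 and Cdc20, an activator of the anaphase-promoting complex, by -0.66 ± 0.33. The amino acid and one-carbon stress response had 13 of 16 below 0 (median -0.20), with Ddit3, which encodes the stress transcription factor CHOP, at 6.93, 6.92 and 6.65 against 6.61, 6.37 and 6.46 (difference -0.36 ± 0.10). Ribosome biogenesis genes had 13 of 20 below 0 (median -0.15), with the helicase gene Ddx21 at -0.33 ± 0.13 and the box C/D RNP gene Nop58 at 0.34 ± 0.20. Apoptosis genes were split, 9 above and 9 below 0 (median 0.01). Their lowest member was Pmaip1, which encodes the BH3-only protein NOXA, at 7.27, 7.54 and 7.65 against 6.97, 6.41 and 6.68, a difference of -0.80 ± 0.25 with no overlap. The lists of TCR signalling, calcium and NFAT, cytokine receptor, cholesterol synthesis, heat shock and NF-kappaB genes and of chemokines made by T cells had medians between -0.22 (NF-kappaB) and 0.06 (chemokines).

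**Figure D4:**
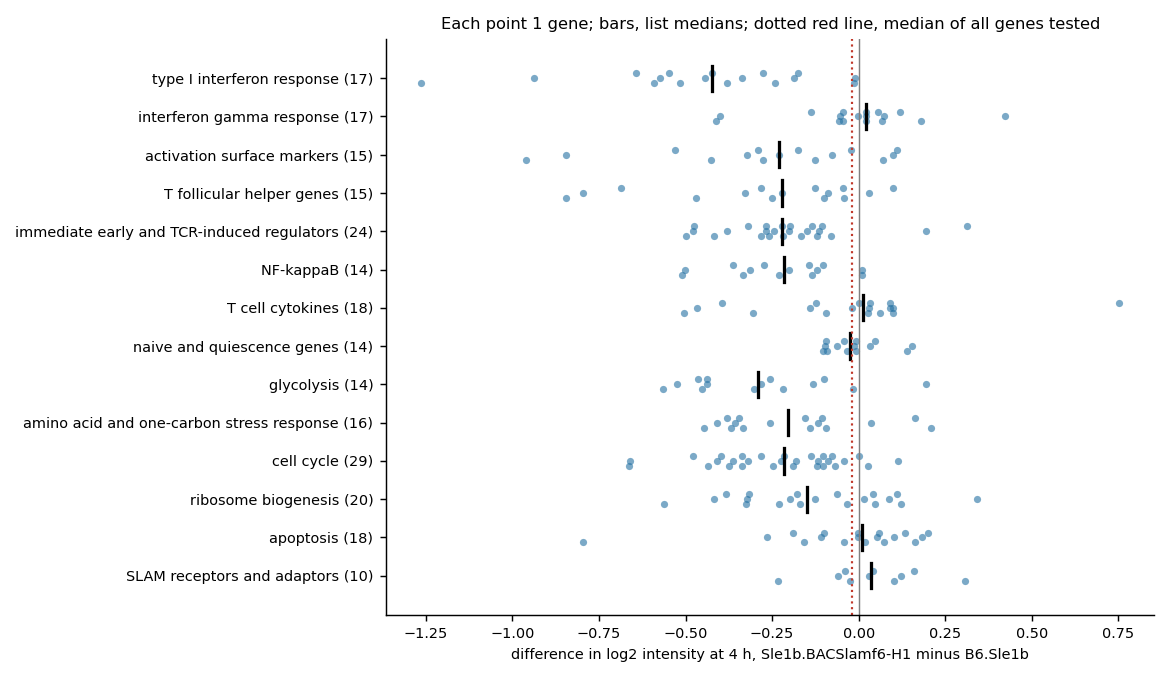
Difference in log2 intensity at 4 h, Sle1b.BAC minus B6.Sle1b (x axis), for each measured member (points) of 14 gene lists (y axis, number of members in brackets), with a bar at each list's median, a grey line at 0 and a dotted red line at the median of all genes. All 17 type I interferon genes lie below 0, with a median of -0.42, whereas interferon gamma genes, cytokines, naive genes, apoptosis genes and SLAM genes are centred near 0.

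Markers of other cells were measured beside these lists. The B cell gene Bank1, which encodes a scaffold protein of B cell receptor signalling, was at 4.26, 4.38 and 4.62 in B6.Sle1b and at 3.63, 3.65 and 3.84 in Sle1b.BAC, a difference of -0.71 ± 0.21 without overlap, while the 15 B cell genes had a median of -0.02. The NK cell gene Klrd1 was at 7.16, 6.97 and 6.88 against 7.57, 7.18 and 7.67 (difference 0.47 ± 0.22), and 9 of 11 NK cell genes had point estimates above 0. Haemoglobin alpha, Hba-a1, was at 11.68, 11.56 and 11.67 against 9.27, 11.25 and 10.88, the lowest value being that of Sle1b.BAC array 1, while 4 of the 7 erythroid genes had point estimates above 0 and their median was 0.01. The marker lists of other cells had medians between -0.19 for CD8 T cells and 0.17 for NK cells. The CD4 T cell genes had a median of -0.17, with 7 of 8 below 0, among them Cd4 at -0.33 ± 0.20, Cd5 at -0.28 ± 0.22 and Cd2 at -0.21 ± 0.09. Their part in the list values above was not tested.

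The genes called against C57BL/6 at 4 h place the strains side by side. In B6.Sle1b 7 genes were called (0.0409%) and in Sle1b.BAC 11 (0.0643%), and since the C57BL/6 arrays are shared, values are given for each. On probe set 1420659_PM_at, which stood for the gene, Slamf6 was higher than in C57BL/6 by 1.39 in B6.Sle1b and by 1.35 in Sle1b.BAC. Its other probe sets went the other way. On 1425086_PM_a_at the differences were -1.80 and -1.35, and 1457773_PM_at was at background in both strains with the interval but not in C57BL/6. Rell1, a member of the RELT family, was lower by a log2 difference of -1.23 and -1.22, H2-Oa, which encodes a modulator of MHC class II loading in B cells, of -0.85 and -0.74, and the calcium-binding protein gene Efhd2 of -0.94 and -1.22. The pseudogene Pisd-ps3 was higher by 1.73 and 1.95. For these 5 genes both strains passed the test against C57BL/6, and the difference between the strains lay between -0.29 and 0.22. Apoe and Slc25a37 were called in B6.Sle1b, at -1.62 and -0.90, and stood at -1.39 and -0.68 in Sle1b.BAC. Called in Sle1b.BAC were Thoc2 (0.87), Rc3h2 (1.16), Cdk5rap1 (1.52), Arhgap5 (0.90), Bank1 (-1.27) and Ddt (-0.68), for which B6.Sle1b stood at 0.22, 0.38, 0.62, 0.33, -0.56 and -0.36. None of these differences between the strains was called. The 7 genes called in B6.Sle1b were also taken from earlier results on these data and support nothing here.

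The 14 genes called between the same strains in unstimulated cells were followed to 4 h on the separate 4 h arrays. Of these, 11 had been named in earlier results on these data. All 14 had point estimates below 0 at 4 h, as in unstimulated cells (all genes at 4 h, 9440 of 17097), and the sizes ranged from -0.01 to -0.70. Since the 14 were chosen by their p in unstimulated cells, their sizes there may be overstated. A smaller size at 4 h therefore need not be a change. Stfa3, a stefin A gene, differed by -2.57 ± 0.26 in unstimulated cells. At 4 h both groups were at background, so no fold is given. Sostdc1 went from -1.71 to -0.69 ± 0.24, 1810009J06Rik from -1.64 to -0.69 ± 0.21, Padi4 from -1.15 to -0.70 ± 0.17 and Cst7 from -1.02 to -0.36 ± 0.15. Mx1 and Izumo1r kept most of their size, with -0.83 and -0.66 in unstimulated cells against -0.64 and -0.47 at 4 h. Insl6, an insulin-like peptide gene, was at 8.44, 8.56 and 9.01 in B6.Sle1b and at 8.45, 8.84 and 8.47 in Sle1b.BAC at 4 h, so that a difference of -1.21 in unstimulated cells stood beside -0.08 ± 0.20. Pex11a, a gene of peroxisome division, likewise stood at -0.01 ± 0.12 beside -0.70, and Ms4a6d at -0.16 ± 0.19 beside -1.14. Nrn1, Casp1, Zdhhc2 and Sec16b were at -0.27, -0.31, -0.23 and -0.08 at 4 h, where Sec16b, like Stfa3, was at background in both groups. The labels do not say whether samples of different times came from the same animals.

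**Figure D5:**
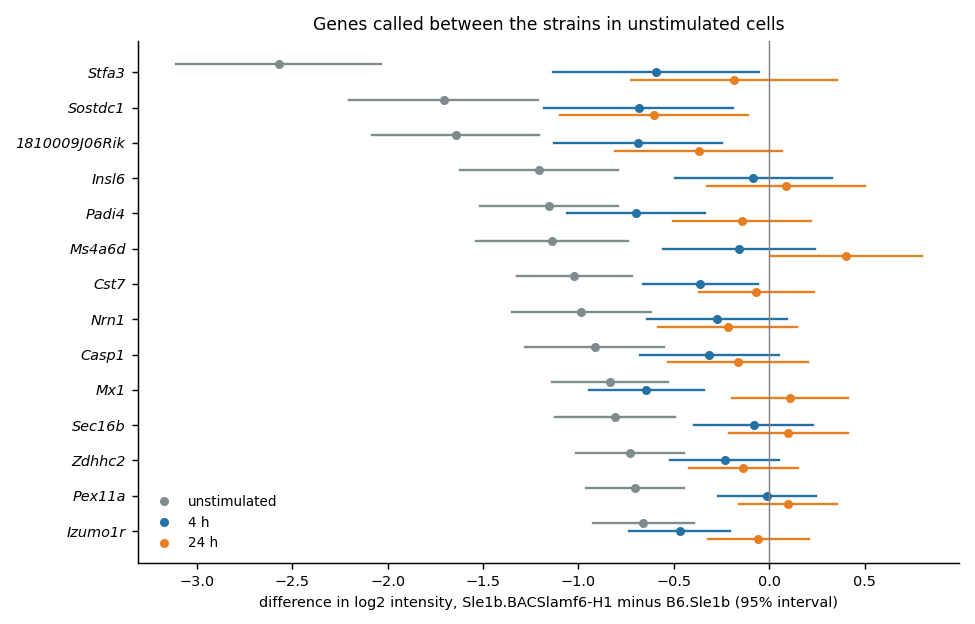
Difference in log2 intensity, Sle1b.BAC minus B6.Sle1b, with its 95% interval (x axis) for the 14 genes called between the strains in unstimulated cells (y axis), in unstimulated cells, at 4 h and at 24 h. At 4 h all 14 points lie left of 0 and between -0.70 and -0.01.

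Whether the strain difference itself changed with activation was tested as an interaction. Between unstimulated cells and 4 h no gene was called (0%; limma, smallest adjusted p = 0.408), with 903 genes under an unadjusted p of 0.05 (5.28%), 591 of them upwards (3.46%) and 312 downwards (1.82%). The smallest p upwards were those of Stfa3 (1.98 ± 0.37), Rab25 (1.0 ± 0.23), Fam78b (0.79 ± 0.19) and Insl6 (1.13 ± 0.28). Downwards they were those of Sash3 (-0.64 ± 0.16), an adaptor gene of lymphocytes, Tbc1d22a (-0.74 ± 0.19), Pabpc6 (-0.60 ± 0.17) and Bpgm (-0.78 ± 0.22), which encodes the enzyme that makes bisphosphoglycerate. Between 24 h and 4 h no gene was called either (0%; smallest adjusted p = 0.784), with 789 under an unadjusted p of 0.05 (4.61%). The smallest p upwards were those of Kcnk4 (0.70 ± 0.17), 4930549C15Rik (1.06 ± 0.26), Rab25 (0.89 ± 0.23) and Zfp975 (0.81 ± 0.22), and downwards those of Sall2 (-0.78 ± 0.16), Fancb (-0.76 ± 0.18), Atf5 (-0.65 ± 0.15) and Tubd1 (-0.74 ± 0.20). Stfa3, Pabpc6 and Sall2 were at background in both strains at 4 h. Within the strains, 973 genes (5.69%) were called between unstimulated cells and 4 h in B6.Sle1b and 1808 (10.6%) in Sle1b.BAC, and the test of the difference between these responses, which is the interaction above, called none.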

How the data were processed

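Total RNA of CD4+ T cells was measured on Affymetrix HT MG-430 PM arrays. The deposited table holds 45141 probe sets on 28 arrays of intensity on a linear scale. The submitters' processing notes name RMA, whose version is not given in the sources used here. This method corrects background, quantile normalizes and summarises probes, so that differences are relative to the whole array. Since the deposited values were linear, log2 was taken here, with no filter. Gene names come from the platform annotation (28898 probe sets with 1 symbol, 551 with several, 15692 with none, 104 of which are controls). Of these Entrez identifiers 28689 were found in the RefSeq table of GRCm38.p6, which gave current symbols. Each of 17097 genes was tested through its probe set with the highest mean.

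The 26 biological arrays entered 1 limma fit (limma 3.58.1, R 4.3.3) with 9 group means, moderated by eBayes. All p-values of a comparison were adjusted by Benjamini-Hochberg across the genes tested, and a gene was called under 0.05. The labels call the replicates biological without saying that they are separate animals. The p-values therefore measure only how far these samples spread, which may be technical, and 3 arrays a group limit the precision. A group was at background where its mean was not above the mean over its arrays of the 95th percentile of 23 non-specific control probe sets; folds against such a group are bounds. The 2 technical C57BL/6 arrays entered only 1 alternative.

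The rule named the 12 genes of smallest p upwards and the 12 downwards among those with arrays that did not overlap and a brighter group above background, all SLAM genes, up to 4 members with the smallest p of each list, the genes of 2 lists taken from earlier results, and 4 genes in each direction for an interaction. The text leaves out some list members. The members, the 33 gene lists and the rules were chosen with earlier results of these data known. Promoters came from RefSeq. The steps were tested on simulated data. Alternatives were other scalings, offsets, filters, probe set rules, array weights, brightness as a covariate, a replicate block and leaving out arrays.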

Additional observations from a re-analysis of the deposited data

How the results depend on the processing

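No gene was called between the strains at 4 h, in limma, under any of 18 other settings, nor in either interaction. Between them the number of genes under an unadjusted p of 0.05 at 4 h ran from 369 with array weights, whose estimation stopped short of its tolerance, to 1668 of 45037 when every probe set was tested on its own. It was 603 with the mean of a gene's probe sets and 1584 with brightness as a covariate, the highest count among settings that tested 17097 genes. Leaving out single arrays gave 0 to 0 called genes, with 410 to 1430 under an unadjusted p of 0.05. An alternative chosen after seeing the data left out the 3 dimmest arrays outside the 24 h groups, 1 of them Sle1b.BAC array 2 at 4 h. It called 2 genes at 4 h, Padi4 (-0.86, adjusted p = 0.0149) and the noncoding RNA Kcnq1ot1 (1.31, adjusted p = 0.0305), and 1 gene, Gpr160, in the interaction with unstimulated cells, against 0 in each as reported. Without Sle1b.BAC array 2 alone no gene was called at 4 h (limma, smallest adjusted p = 0.299). The other arrays left out were unstimulated. They entered the 4 h comparison only through the fit's shared estimate of spread. Nothing further about the cause was tested. The replicate numbers were not taken as a pairing, since deviations of same-numbered arrays at 4 h correlated at 0.37, -0.41 and -0.17 over 5157 genes. The highest correlation between the groups, 0.56, was that of Sle1b.BAC array 2 with B6.Sle1b array 3. With the replicate number as a random block the counts were 0, 0 and 0, with 559 genes under an unadjusted p of 0.05 at 4 h.

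Of 107 genes followed through 19 alternatives, 1978 of 2028 values kept their direction and their side of the threshold and 48 turned direction, all of them small or widely spread differences. With quantile normalization repeated, Slamf1 was at 0.0039 and Slamf6 at 0.015. With arrays centred on their median, Rell1 was at -0.014. With the mean of a gene's probe sets, Slamf6 was at 0.25, Cd244a at 0.064, Pisd-ps3 at -0.0078, Rell1 at -0.12 and Slc25a37 at -0.069. With brightness as a covariate Sh2d1a was at -0.0077. With array weights, Slamf1 was at 0.075, Slamf6 at 0.028, Slamf9 at -0.045, Ly9 at -0.31, Cxcl10 at 0.033, Insl6 at 0.00084, Pex11a at 0.026, S100a8 at -0.70 and S100a9 at -0.66. Without the 3 dim arrays, Slamf6 was at 0.16, Cd244a at 0.026, Sh2d1a at -0.037 and Ms4a6d at 0.0058. Leaving out single arrays, the values ran from -0.19 to 0.16 for Slamf6, -0.12 to 0.061 for Slamf1, -0.045 to 0.33 for Slamf9, -0.31 to 0.26 for Ly9, -0.25 to 0.044 for Cd244a and -0.037 to 0.11 for Sh2d1a. They ran from -0.25 to 0.25 for Il2, -0.18 to 0.18 for Ifng, -0.21 to 0.087 for Insl6, -0.26 to 0.0058 for Ms4a6d, -0.068 to 0.030 for Pex11a and -0.011 to 0.031 for Rell1. The cause of these turns was not tested. With 3 arrays a group, the median standard error for genes above background was 0.19 and the median half-width of their 95% interval was 0.39. In the reported fit no difference of any size was called.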
